A study of Mus musculus with 7 samples.

Results

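The proteasome subunit genes are taken here as the rows of the count table whose symbol is Psma, Psmb, Psmc or Psmd followed by a number, without Psmb8, Psmb9 and Psmb10, the catalytic subunits of the immunoproteasome. This rule found 36 of the 35976 gene symbols in the table. Of these, 16 encode the core particle (8 alpha and 8 beta subunits). The other 20 encode the regulatory particle: 6 ATPases, 3 further subunits of its base, 8 subunits of its lid and 3 chaperones that help to assemble the base and leave the finished complex. The low-count filter kept 35 of the 36. The gene left out was Psmb11, the beta subunit of thymic epithelium, with 1 count in sgRosa replicate 4 and 0 in the other libraries.

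The proteasome degrades proteins that carry ubiquitin chains. Its core is a barrel of stacked alpha and beta rings with the proteolytic sites inside. The regulatory particle binds the ubiquitin chain, removes it, and uses its ATPase ring to unfold the substrate and thread it into the core. In neurons the proteasome is known for setting the turnover of synaptic proteins, and most subunit genes are expressed in all cells and are often regulated as a group, in part by the transcription factor encoded by Nfe2l1.

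The libraries came from the amygdala of male C57BL/6J mice, whose age the labels do not give. An adeno-associated virus with a guide against Nr2f2 (sgNr2f2, 3 libraries), a nuclear receptor gene, or against the Rosa locus as the control (sgRosa, 4 libraries) was delivered there. Cas9 was expressed from the Hsyn promoter, which is active in neurons, for more than 2 weeks. Both groups then went through the same course: tube restraint over 7 days, then fear conditioning on 1 day and extinction training on 3 more. Thus no unstressed animals were compared. Cells were released with papain, neurons were enriched with a magnetic isolation kit, and 5 ng of total RNA entered each library. Whether a library is 1 animal or a pool is not stated. The p-values below therefore measure only the spread between these libraries, which may be technical. The series asks what loss of Nr2f2 changes in amygdala neurons under stress. For the proteasome the comparison at hand is that of sgNr2f2 with sgRosa in whole libraries.

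Total counts were 15335076, 19788953, 17546894 and 6266897 in sgRosa replicates 1 to 4 and between 16497269 and 20928677 in sgNr2f2. Levels below are CPM, the counts of a gene relative to the TMM-scaled size of its library, and fold changes are log2 values of sgNr2f2 against sgRosa. Nr2f2 (chr7:70351946-70366746) was at 19.8, 16.5, 11.3 and 13.1 CPM in sgRosa and at 11.9, 11.997 and 11.6 CPM in sgNr2f2. Its log2 fold change was -0.36 (SE 0.37, edgeR adjusted p = 0.905), so the groups overlapped and the count of the targeted gene does not check the labels. All 12 neuron markers were detected in every library, but they held only 0.0406% to 0.192% of the counts in sgRosa and 0.0453% to 0.0556% in sgNr2f2. The 10 oligodendrocyte markers held 2.69% to 29.4% in sgRosa and 17.9% to 32.2% in sgNr2f2. In such bulk libraries fewer cells of a type and less RNA per cell cannot be told apart. Most proteasome subunit genes are expressed in all cells, so their counts here cannot be assigned to neurons. A difference, or the lack of one, is therefore not a result about neurons alone. SgRosa replicate 4 stood apart. Besides the lowest total it had the lowest oligodendrocyte share (2.69%), the highest erythroid share (6 markers at 3.70%, against 0.0958% to 0.318% in the others, with Slc4a1 at 0 in sgNr2f2 replicate 1) and a mean correlation with the other libraries of 0.723, against 0.876 to 0.900. Fold changes below are therefore given with and without it.

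No proteasome subunit gene passed the test between sgNr2f2 and sgRosa. Of the 35 tested members 0 had an edgeR adjusted p under 0.05, and the background was equally 0% of 14412 genes. At an unadjusted p under 0.05 the count of members was also 0, beside 5.00% of all genes. DESeq2 called 7 of 14020 genes and 0 members, but gave no adjusted p for Psmc3 and Psmc4. The smallest adjusted p of a member was 0.868. The 3 sgNr2f2 libraries lay all above or all below the 4 sgRosa libraries in 3 of 35 members, beside 8.31% of all genes. These were Psmd1 and Psmd2, higher in sgNr2f2 (background 4.41%), and Psma4, lower (background 3.90%). Without sgRosa replicate 4, 0 members passed and 0 were at an unadjusted p under 0.05 by edgeR (background 11.3%). The groups then did not overlap in 10 members, beside 18.1% of all genes. Of these, 5 were higher (9.11% of all genes) and 5 lower (8.95%). With DESeq2 on those 6 libraries 372 genes passed (2.64%), again with 0 members among them. The standard errors ran from 0.35 (Psma5) to 0.76 (Psma8) on the log2 scale, and from 0.22 (Psmd6) to 0.60 (Psma8) without sgRosa replicate 4.

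The fold changes of the members lay mostly below 0. With all 7 libraries 31 of 35 were below 0, beside 56.2% of all genes, and their median was -0.27, beside -0.11 over all genes. All 15 tested core members were below 0 (median -0.27), as were 16 of 20 regulatory members (median -0.27). Without sgRosa replicate 4 the median of the members was 0.01, beside -0.03 for all genes. The core then had 10 of 15 members below 0 (median -0.18) and the regulatory particle 7 of 20 (median 0.10), beside 52.5% of all genes. The shared downward shift of the regulatory particle was thus present only in fits that held that library, among those with 1 library left out.

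**Figure D1:**
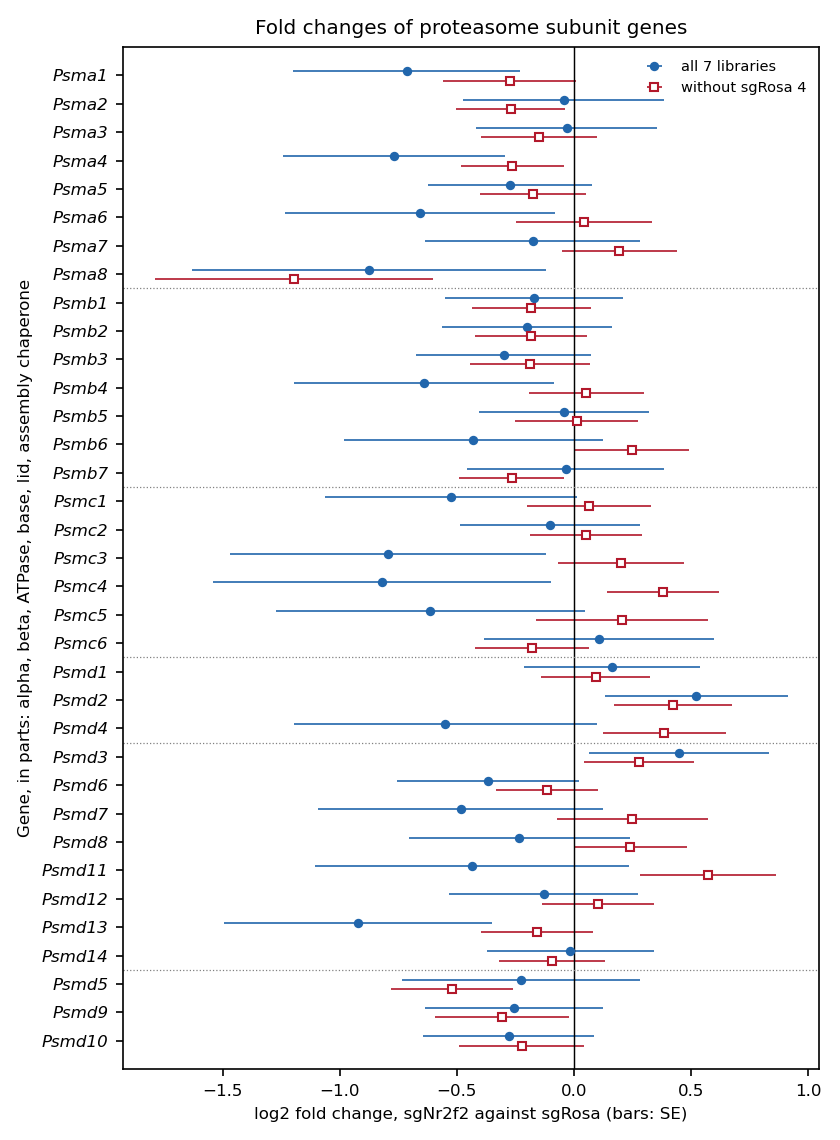
Log2 fold change of each tested member, sgNr2f2 against sgRosa, from edgeR (x axis), with genes in rows grouped by their place in the complex. Filled circles use all 7 libraries, open squares leave out sgRosa replicate 4, and bars are standard errors. The squares of most ATPase, base and lid genes lie to the right of their circles, for example Psmc4 at 0.38 against -0.82.

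The alpha subunits form the outer rings of the core and the gate through which substrates enter. Psma7, the alpha gene with the highest level per kilobase, was at 110.5, 112, 124 and 252 CPM in sgRosa and at 135, 140.5 and 121 CPM in sgNr2f2. Only sgRosa replicate 4 stood above the range of the others, and the groups overlapped (log2 fold change -0.18, SE 0.46; 0.19 without that library). Psma4 (chr9:54950781-54958034) was at 34.4, 29.9, 30.0 and 84.5 CPM in sgRosa and at 23.4, 28.5 and 26.6 CPM in sgNr2f2. Every sgNr2f2 library lay below every sgRosa library. Its log2 fold change was -0.77 (SE 0.47, edgeR adjusted p = 0.868) and -0.26 (SE 0.22) without sgRosa replicate 4, when the groups still did not overlap. Exons of Psma4 overlap those of AY074887, and reads of the pair may not be separable. Psma1 was at 57.9, 49.2, 36.5 and 117 CPM in sgRosa and at 31.8, 51.2 and 35.8 CPM in sgNr2f2, with overlap (-0.72, SE 0.49; -0.27, SE 0.28, without sgRosa replicate 4).

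Of the remaining alpha genes, whose values are given here after they were seen, Psma6 resembled Psma4 and Psma1. It was at 63.1, 53.5, 54.0 and 200 CPM in sgRosa and at 41.1, 80.1 and 54.7 CPM in sgNr2f2 (log2 fold change -0.66, SE 0.58; 0.04 without sgRosa replicate 4). Psma2 went the other way in sgRosa replicate 4. Its levels were 55.8, 59.5, 58.4 and 24.1 CPM in sgRosa and 39.2, 51.8 and 53.0 CPM in sgNr2f2 (-0.04, SE 0.43). Without that library Psma2 was lower in every sgNr2f2 library (-0.27, SE 0.23). Psma8, a testis form of an alpha subunit, was the lowest tested member, with 7 libraries between 0.666 and 6.47 CPM. Its groups overlapped with sgRosa replicate 4 (-0.88, SE 0.76) and did not without it, when all sgNr2f2 libraries were lower (-1.20, SE 0.60, edgeR adjusted p = 0.4998). Psma3 and Psma5 had log2 fold changes of -0.03 and -0.27 (-0.15 and -0.18 without sgRosa replicate 4), with overlap. Exons of Psma5 overlap those of 1700010K24Rik.

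The beta subunits form the inner rings, and Psmb5, Psmb6 and Psmb7 encode those with the proteolytic sites. Psmb6 (chr11:70525324-70527858) was at 75.2, 87.0, 77.5 and 272 CPM in sgRosa and at 80.7, 104.5 and 99.8 CPM in sgNr2f2. The single high value was sgRosa replicate 4, and the log2 fold change was -0.43 (SE 0.55) with it and 0.25 (SE 0.24) without it. Psmb5, the subunit that binds the inhibitor bortezomib, was at 11.4, 11.97, 12.4 and 13.9 CPM in sgRosa and at 12.5, 9.53 and 14.2 CPM in sgNr2f2. All 7 libraries of Psmb5 lay close together, and the log2 fold change was -0.04 (SE 0.36, 95% interval -0.85 to 0.76; 0.01 without sgRosa replicate 4). Psmb7 was at 37.9, 42.2, 35.2 and 15.7 CPM in sgRosa and at 28.1, 34.4 and 33.5 CPM in sgNr2f2 (-0.04, SE 0.42). Without sgRosa replicate 4 Psmb7 was lower in every sgNr2f2 library (-0.27, SE 0.22). The 3 catalytic genes therefore took 3 courses in sgRosa replicate 4: Psmb6 above, Psmb7 below and Psmb5 within the level of the other libraries. Exons of Psmb7 overlap those of Nek6, and exons of Psmb5 overlap Mir686. Psmb5 and Psmb7 were added to the description after their values were seen.

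Among the structural beta genes Psmb4 had the largest difference between groups. It was at 44.7, 58.4, 54.9 and 183 CPM in sgRosa and at 55.4, 45.5 and 63.1 CPM in sgNr2f2 (-0.64, SE 0.56; 0.05 without sgRosa replicate 4). Psmb3 was at 41.1, 38.2, 34.2 and 50.3 CPM in sgRosa and at 24.8, 40.5 and 34.4 CPM in sgNr2f2 (-0.30, SE 0.37; -0.19 without sgRosa replicate 4), with overlap. SgNr2f2 replicate 1 was the lowest of all 7 libraries in 8 of the 15 core genes, Psmb3 among them, and in 1 of the 20 regulatory genes. Across all genes that library was the lowest in 14.3%. Psmb1 and Psmb2 had log2 fold changes of -0.17 and -0.20 (-0.18 for both without sgRosa replicate 4).

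The 6 ATPases form the ring that unfolds substrates and docks on the core. Psmc5 (chr11:106256185-106263112), the member with the highest level per kilobase of all, was at 110.1, 209, 268 and 796 CPM in sgRosa and at 255, 191 and 231 CPM in sgNr2f2. Its sgRosa libraries ranged from the lowest to the highest value of the 7 and enclosed all 3 sgNr2f2 libraries (-0.61, SE 0.66; 0.21 without sgRosa replicate 4). Psmc4 (chr7:28041702-28050092) was at 58.9, 60.5, 55.8 and 363 CPM in sgRosa and at 74.6, 89.1 and 64.6 CPM in sgNr2f2. Its value in sgRosa replicate 4 was 5.80 times the median of the other 6 libraries. Without that library the sgNr2f2 libraries were all higher than the sgRosa libraries, and the log2 fold change moved from -0.82 (SE 0.72) to 0.38 (SE 0.24, edgeR adjusted p = 0.610). Psmc3 followed the same course, at 111, 151, 152 and 689 CPM in sgRosa and 168, 155 and 153 CPM in sgNr2f2 (-0.80, SE 0.68; 0.20 without sgRosa replicate 4). Without that library the groups of Psmc3 were separated only by the narrow margin between 152.3 and 152.6 CPM. Exons of Psmc3 overlap those of Slc39a13.

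Psmc6 (chr14:45329823-45349074) did the opposite of its partners in the ring. It was at 66.7, 80.5, 75.8 and 21.3 CPM in sgRosa and at 64.3, 56.2 and 76.7 CPM in sgNr2f2. SgRosa replicate 4 was here the lowest library, at 0.299 times the median of the other 6, and Psmc6 was the only ATPase with a fold change above 0 (0.11, SE 0.49; -0.18 without that library). Psmc1 was high in sgRosa replicate 4 (352 CPM, against 96.7 to 137 in the others) and Psmc2 less so (84.9 CPM, against 50.2 to 68.9). Their log2 fold changes were -0.53 and -0.10 with it and 0.06 and 0.05 without it. Psmc6, Psmc1 and Psmc2 were chosen after their values were seen. The products of all 6 genes are present in equal numbers in the ring, while their counts in sgRosa replicate 4 spread from 21.3 to 796 CPM.

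**Figure D2:**
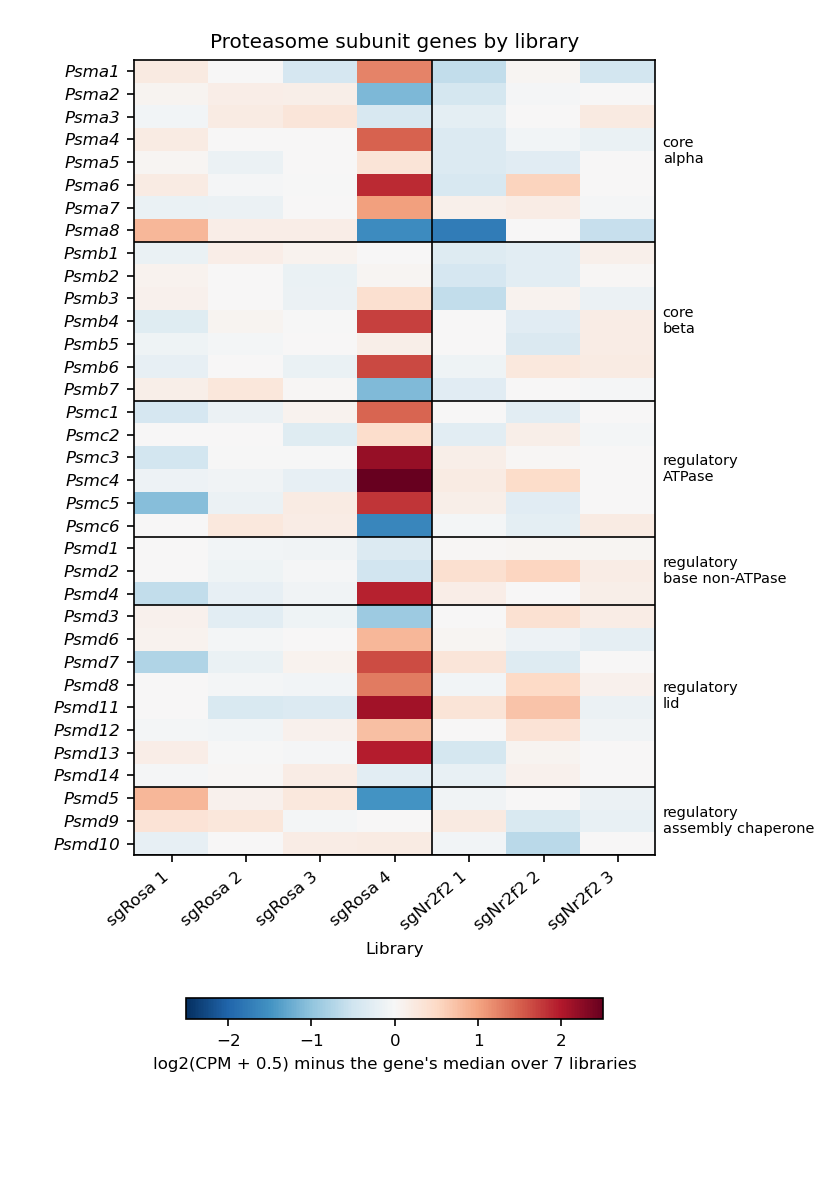
Each row is 1 of the 35 tested members, each column 1 library, and colour is log2(CPM + 0.5) minus the gene's median over the 7 libraries (red higher, blue lower). SgRosa replicate 4 is red for most ATPase and lid genes and blue for Psma2, Psma8, Psmb7, Psmc6 and Psmd5, while the other columns are paler, apart from Psma8 in sgNr2f2 replicate 1 and Psmc5 in sgRosa replicate 1.

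The base holds 3 further subunits, the scaffolds encoded by Psmd1 and Psmd2 and the ubiquitin receptor encoded by Psmd4. Psmd2 (chr16:20651122-20663414) was at 111, 103, 109 and 79.0 CPM in sgRosa and at 147, 161 and 125 CPM in sgNr2f2. All sgNr2f2 libraries were above all sgRosa libraries, with means of 100.5 ± 14.7 (SD, n = 4) and 144 ± 17.9 CPM (SD, n = 3). Its log2 fold change was 0.52 (SE 0.39, 95% interval -0.34 to 1.39, edgeR adjusted p = 0.874) and 0.42 (SE 0.25) without sgRosa replicate 4. Psmd2 is the member with the largest positive fold change, and it did not pass the test.

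Psmd1 (chr1:86064619-86139295) was at 100.3, 96.1, 94.0 and 78.8 CPM in sgRosa and at 102, 104 and 104 CPM in sgNr2f2. The groups did not overlap, but the nearest values, 100.3 and 102, differed by less than the spread within sgRosa. The log2 fold change was 0.16 (SE 0.37), 0.09 without sgRosa replicate 4 and -0.06 when libraries were scaled by their totals alone. Exons of Psmd1 overlap those of Gm21972. Psmd4 (chr3:95032688-95042614) was at 77.3, 103, 112 and 455 CPM in sgRosa and at 133, 119 and 131 CPM in sgNr2f2. Its fold change was -0.55 (SE 0.65) with sgRosa replicate 4 and 0.39 (SE 0.26) without it, when all sgNr2f2 libraries lay above all sgRosa libraries.

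The lid removes ubiquitin from the substrate before it is degraded. Psmd7 (chr8:107580380-107588482), the inactive partner of the deubiquitinase, was at 99.8, 150, 180 and 523 CPM in sgRosa and at 208, 135 and 168 CPM in sgNr2f2. Psmd7 overlapped between groups (-0.48, SE 0.61; 0.25 without sgRosa replicate 4). Psmd14, which encodes the deubiquitinase itself and was chosen after its values were seen, was at 48.5, 50.9, 56.7 and 41.0 CPM in sgRosa and at 43.6, 53.2 and 49.6 CPM in sgNr2f2. Its 7 libraries lay between 41.0 and 56.7 CPM, with a log2 fold change of -0.01 (SE 0.36, 95% interval -0.81 to 0.78; -0.09 without sgRosa replicate 4).

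Psmd13 had the lowest fold change of all members. It was at 34.5, 30.3, 29.7 and 120 CPM in sgRosa and at 22.2, 32.1 and 30.5 CPM in sgNr2f2, so 1 library set the difference (-0.92, SE 0.57, edgeR adjusted p = 0.868; -0.16 without sgRosa replicate 4). Exons of Psmd13 overlap those of Sirt3. Psmd3 was at 36.7, 28.2, 31.2 and 17.7 CPM in sgRosa and at 33.8, 44.4 and 38.5 CPM in sgNr2f2 (0.45, SE 0.38; 0.28 without sgRosa replicate 4), with 1 sgRosa library inside the sgNr2f2 range. Exons of Psmd3 overlap those of Gm12356. Psmd11, picked after its values were seen, was at 65.3, 50.03, 51.6 and 281 CPM in sgRosa and at 81.5, 108 and 59.0 CPM in sgNr2f2. Its log2 fold change went from -0.43 (SE 0.67) to 0.57 (SE 0.29) when sgRosa replicate 4 was left out, then the highest of the members. The fold changes of Psmd6, Psmd8 and Psmd12 were -0.37, -0.23 and -0.13 with sgRosa replicate 4 and -0.12, 0.24 and 0.10 without it.

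The 3 base assembly chaperones were all below 0 in both fits. Psmd10 (gankyrin) was at 19.5, 22.8, 25.7 and 26.3 CPM in sgRosa and at 21.7, 14.0 and 22.7 CPM in sgNr2f2 (-0.28, SE 0.37; -0.22 without sgRosa replicate 4). Psmd9 was at 13.5, 12.8, 10.1 and 10.5 CPM in sgRosa and at 12.4, 7.90 and 9.20 CPM in sgNr2f2 (-0.26, SE 0.38; -0.31 without that library). Neither gene separated the groups. Psmd5, described after its values were seen, was at 46.5, 27.8, 31.0 and 8.86 CPM in sgRosa and at 24.2, 25.9 and 23.2 CPM in sgNr2f2. The sgNr2f2 libraries were at 24.5 ± 1.34 CPM (SD, n = 3), while sgRosa held both the highest and the lowest value (-0.23, SE 0.51; -0.52, SE 0.26, without sgRosa replicate 4).

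To set the core against the regulatory particle, the mean log2 CPM of the 15 core genes was taken minus that of the 20 regulatory genes within each library, so that the scaling of the library cancels. The difference was -0.42, -0.49, -0.60 and -0.93 in sgRosa and -1.05, -0.67 and -0.63 in sgNr2f2. The group means were -0.61 ± 0.23 (SD, n = 4) and -0.78 ± 0.23 (SD, n = 3). Their difference of -0.17 was smaller than either SD, and sgRosa replicate 4 lay inside the sgNr2f2 range. Without that library the sgRosa mean was -0.51 ± 0.09 (SD, n = 3) and the difference was -0.28. All 3 sgRosa values then lay above all 3 sgNr2f2 values, but the nearest, -0.60 and -0.63, were close. The core mean weighs Psma8, at only 0.666 to 6.47 CPM, like any other core gene. The log2 fold change of Psma8 without sgRosa replicate 4 was -1.20, and the difference between particles without Psma8 was not tested. With all 4 sgRosa libraries but without sgNr2f2 replicate 1, the library with the lowest core mean, the difference was -0.04.

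The 2 particles contributed differently to these values. The core mean was 5.40, 5.39, 5.33 and 5.70 in sgRosa and 4.93, 5.31 and 5.30 in sgNr2f2 on the log2 CPM scale. The regulatory mean was 5.83, 5.88, 5.93 and 6.63 in sgRosa and 5.97, 5.99 and 5.94 in sgNr2f2. Outside sgRosa replicate 4 the regulatory mean thus kept within 5.83 to 5.99. The core mean kept within 5.30 to 5.40, apart from sgNr2f2 replicate 1 at 4.93. As summed counts, core genes held 0.593, 0.540, 0.481 and 0.342 times the counts of regulatory genes in sgRosa and 0.388, 0.487 and 0.495 times in sgNr2f2. Counts depend on transcript length, and this ratio says nothing of the number of subunits.

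**Figure D3:**
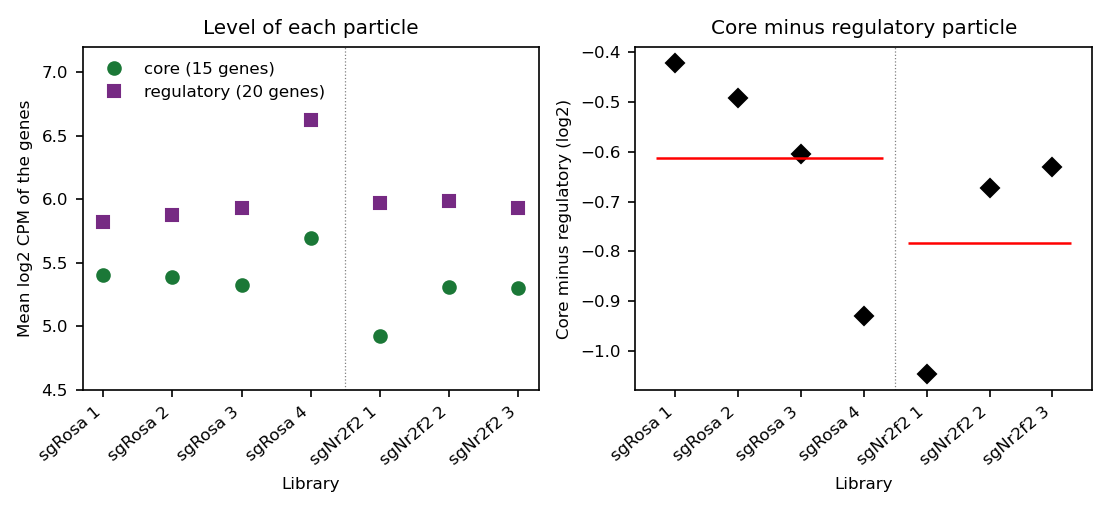
Left, mean log2 CPM of the 15 core genes (circles) and of the 20 regulatory genes (squares) in each library. Right, core minus regulatory mean (log2) per library, with red lines at the group means of -0.61 and -0.78. SgRosa replicate 4 is highest in both particles on the left, and sgNr2f2 replicate 1 is the lowest point on the right.

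SgRosa replicate 4 gave the members their main pattern. All members together held 0.287%, 0.214%, 0.200% and 0.664% of the counts in sgRosa and 0.216%, 0.264% and 0.190% in sgNr2f2. The library was the highest of the 7 in 21 of 35 members and the lowest in 9, beside 32.7% and 35.8% of all genes. It lay over 2-fold above the mean of the other sgRosa libraries in 15 members and over 2-fold below it in 5. Together that is 57.1% of the members, beside 56.4% of all genes, so a departure of this size was as common in the table as among the members. The split was not the same: 25.4% of all genes lay above and 31.0% below. The members also spread more in it, with an SD of log2 CPM per kilobase across members of 2.28, against 1.06 to 1.60 in the other libraries. That SD was not taken over all genes. The log2 deviation of sgRosa replicate 4 from the other sgRosa libraries had an SD of 1.32 across members, beside 1.66 across all genes, so a wide spread was not particular to the members.

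Transcript composition moved with these departures. Across the 35 members the deviation of sgRosa replicate 4 from the other sgRosa libraries correlated with the GC content of the longest transcript at r = 0.49 (Spearman 0.447), and across 13575 genes of the whole table at r = 0.435. With transcript length the values were r = -0.427 (Spearman -0.306) for the members and r = -0.085 (Spearman -0.193) for all genes. Psmc6 had the lowest GC content of the members, 37.0%, and lay 1.78 log2 units below. Psmc3 at 55.1% and Psmc4 at 53.5% lay 2.33 and 2.63 above, but Psmd3, with the highest GC content (58.3%), lay 0.83 below. The fold changes without sgRosa replicate 4 also went with GC content (r = 0.513 over members, 0.35 over all genes). These correlations run across genes of the same libraries, which are not independent, and the part of GC content in the results was not tested. The core and the regulatory particle had nearly the same median GC content (49.2% and 49.6%) and differed in median transcript length (1165 and 1887 bases). The erythroid share (3.70%) and the neuron share (0.192%) were also highest in sgRosa replicate 4. So were the shares of astrocyte markers (0.0775%) and of pericyte and smooth muscle markers (0.0467%). The part of these shares was not tested.

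**Figure D4:**
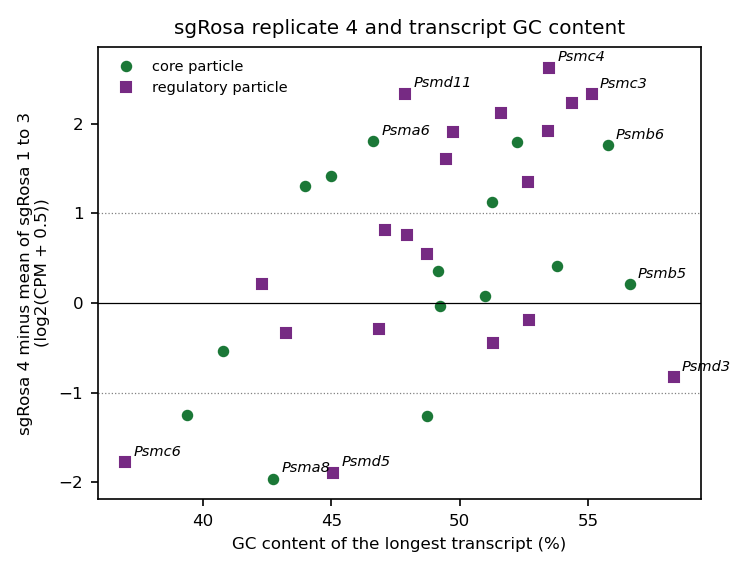
Each point is 1 tested member, with the GC content of its longest GENCODE transcript (x axis, %) and the deviation of sgRosa replicate 4 from the mean of sgRosa replicates 1 to 3 (y axis, log2(CPM + 0.5)). Circles are core and squares regulatory genes, and dotted lines mark 2-fold. Points rise with GC content (r = 0.49), with Psmc6 at the lower left and Psmd3 as an exception at the lower right.

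In the other 6 libraries the members were steady. The highest of the 6 values was 1.50 times the lowest in the median member, from 1.107 times for Psmd1 to 9.71 times for Psma8, with Psmc5 next at 2.43 times. On the CPM + 0.5 scale the median was 1.49 for members and 2.41 for all genes. The members were not matched to other genes for level, so this is a description. Per kilobase of exon, which allows genes to be compared, Psmc5 led with a median of 167 CPM per kilobase over the 6 libraries. Psmb6 (105), Psma7 (104) and Psmd7 (101) followed, 1 gene each from the beta ring, the alpha ring and the lid. At the other end stood Psmb5 (13.6), Psmd13 (15.3) and the chaperones Psmd10 (15.1), Psmd5 (6.11) and Psmd9 (4.32), with Psma8 (2.16) lowest of all. The order of Psmb6, Psma7 and Psmd7 is not resolved, since their libraries overlap. The lead of Psmc5 did not hold in sgRosa replicate 1. There Psmc5 had 110.1 CPM over 1.316 kilobases and Psma7 110.5 CPM over 1.18 kilobases. Genes whose products are present in equal numbers in the complex thus differed in level by an order of magnitude, and exon length taken as the union of annotated transcripts is itself an approximation.

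**Figure D5:**
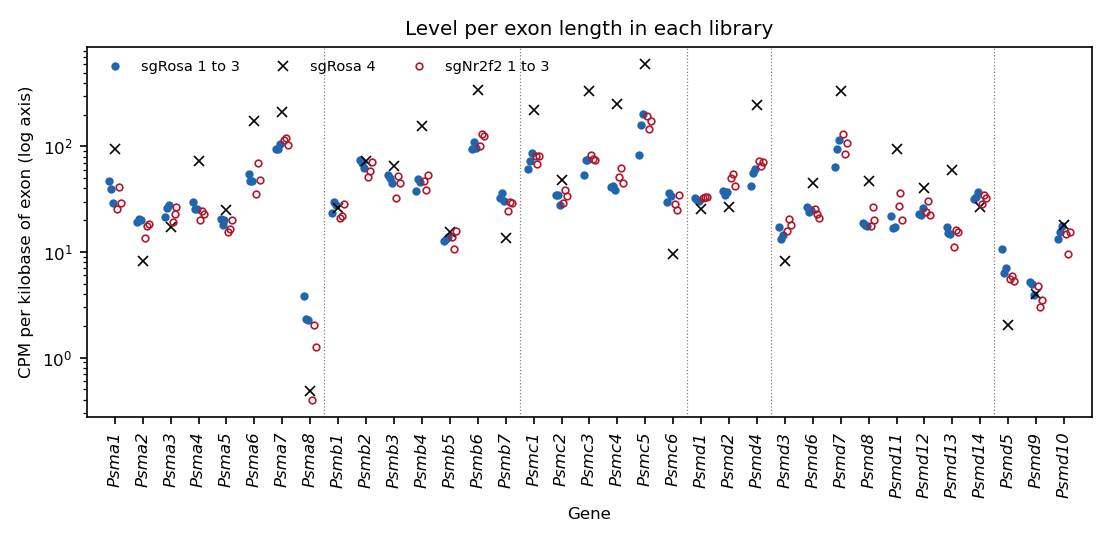
CPM per kilobase of exon (log axis) of each tested member in each library: filled circles sgRosa replicates 1 to 3, crosses sgRosa replicate 4, open circles sgNr2f2. Dotted lines separate alpha, beta, ATPase, base, lid and chaperone genes. Circles of a gene lie close together, with Psmc5 highest by median, though not in sgRosa replicate 1, and Psma8 lowest. Crosses lie far above or below them in many genes.

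The promoters of the members were searched because the particles are often described as co-regulated. RefSeq (GRCm38.p6) gave a window of 300 bases, 250 before and 50 after the start, for 29 of the 36 members and 27025 genes in all. Motifs were counted on both strands. The ETS motif CCGGAAG was present in 10 of 29 members, 9 of 17 regulatory genes and 1 of 12 core genes, beside 9.9% of all genes. The GC box GGGCGG was present in 18 members, 13 regulatory and 5 core, beside 38.2%. The core of the antioxidant response element, through which the product of Nfe2l1 binds, is TGACNNNGC. It was present in 5 members, 3 regulatory and 2 core (14.0% of all genes). The CCAAT box was present in 12 members (41.1%) and TATAAA in 3 (15.7%). A looser form of the antioxidant response element, TGANNNNGC, was present in 17 members (45.0%), and its full form, TGACTCAGC, in 0 (0.5%). The YY1 core GCCAT was present in 17 (44.2%). These matches are descriptions of letters and not binding sites.

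Upstream stretches of 4 members, picked as examples after their values were seen, show how the matches lie before genes with different courses in sgRosa replicate 4. They are written from 5′ to 3′ on the gene's strand, from RefSeq GRCm38.p6. Capitals mark matches to the ETS motif, the GC box, the CCAAT box or the antioxidant response element core on either strand, and adjoining matches run together. Psmd4 (chr3:95042615-95042864, minus strand) and Psmd11 (chr11:80428365-80428614, plus strand), both among the genes highest in sgRosa replicate 4, carry an ETS match, CCGGAAG in Psmd4 and its reverse complement in Psmd11. Psmc6 (chr14:45329574-45329787, plus strand), the ATPase gene lowest in that library, carries the same ETS motif joined to a GC box, 2 more GC boxes and an antioxidant response element core. Psmb5 (chr14:54618023-54618245, minus strand), level in all libraries, carries an antioxidant response element core and none of the other 3 motifs. Of all 10 members with the ETS motif, Psmc6 and Psmd2 lay below the mean of the other sgRosa libraries in sgRosa replicate 4 (-1.78 and -0.44 log2 units). The others lay above it, from 0.55 (Psmc2) to 2.34 (Psmd11). The median was 0.55 over all tested members and 0.79 over the regulatory genes, to which 9 of these 10 belong. A link between motif and course was not tested.
Psmd4: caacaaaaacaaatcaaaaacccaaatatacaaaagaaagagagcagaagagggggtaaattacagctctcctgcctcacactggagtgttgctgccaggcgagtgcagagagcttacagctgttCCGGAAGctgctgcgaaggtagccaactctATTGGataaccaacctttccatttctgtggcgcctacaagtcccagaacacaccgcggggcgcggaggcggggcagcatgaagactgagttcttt
Psmd11: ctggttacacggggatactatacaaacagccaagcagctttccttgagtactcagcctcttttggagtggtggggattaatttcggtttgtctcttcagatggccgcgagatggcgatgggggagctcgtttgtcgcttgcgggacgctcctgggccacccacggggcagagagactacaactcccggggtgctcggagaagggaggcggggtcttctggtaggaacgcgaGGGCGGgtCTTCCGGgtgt
Psmc6: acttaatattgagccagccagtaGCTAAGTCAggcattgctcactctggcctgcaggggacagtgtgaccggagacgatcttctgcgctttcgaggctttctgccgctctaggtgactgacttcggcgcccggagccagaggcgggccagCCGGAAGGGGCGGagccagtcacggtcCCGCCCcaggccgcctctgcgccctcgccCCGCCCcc
Psmb5: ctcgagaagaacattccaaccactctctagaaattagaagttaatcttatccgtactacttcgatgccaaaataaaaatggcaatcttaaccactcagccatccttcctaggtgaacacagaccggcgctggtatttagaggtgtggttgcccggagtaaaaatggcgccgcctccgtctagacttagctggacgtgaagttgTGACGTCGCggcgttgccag

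Of the other genes of the pathway none passed the test either (39 tested in 8 lists, with 0% of all genes called). Among these 39 the groups did not overlap in Psme4, Psmg2, Psmg4, Ddi2 and Uba1, beside 8.31% of all genes. The immunoproteasome subunits, which replace the 3 catalytic beta subunits under interferon, were all below 0 with and without sgRosa replicate 4, with no separation of the groups. Psmb8 was at 46.8, 23.2, 28.7 and 45.2 CPM in sgRosa and at 23.9, 46.1 and 24.8 CPM in sgNr2f2 (-0.19, SE 0.44; -0.06 without sgRosa replicate 4). Psmb9 was at 14.0, 5.69, 6.598 and 0.818 CPM in sgRosa and at 3.33, 5.16 and 6.11 CPM in sgNr2f2 (-0.49, SE 0.73; -0.85 without sgRosa replicate 4 and 0.14 without sgRosa replicate 1). Psmb10 was at 34.2, 26.1, 26.1 and 96.9 CPM in sgRosa and at 19.1, 35.0 and 24.3 CPM in sgNr2f2 (-0.81, SE 0.55; -0.14 without sgRosa replicate 4). The high library of Psmb10 was again sgRosa replicate 4, in which Psmb9 was lowest.

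Of the 5 alternative activators and the inhibitor of the core, 2 were below and 3 above 0, also without sgRosa replicate 4. Psme4, an activator that opens the core without ATP, was at 12.7, 12.5, 14.8 and 7.63 CPM in sgRosa and at 22.2, 16.8 and 18.5 CPM in sgNr2f2. All sgNr2f2 libraries were higher (0.68, SE 0.38, edgeR adjusted p = 0.868; 0.52 without sgRosa replicate 4). Psme1, an interferon-induced activator subunit named after its values were seen, spread widely, with 187 CPM in sgRosa replicate 4 against 15.8 to 47.5 in the others (-1.29, SE 0.76; -0.15 without it).

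All 5 assembly chaperones of the core were below 0, with a median log2 fold change of -0.50 (4 of 5 below 0 and -0.45 without sgRosa replicate 4). Psmg4 was at 5.16, 7.25, 6.94 and 12.9 CPM in sgRosa and at 3.57, 4.71 and 2.85 CPM in sgNr2f2. The groups of Psmg4 did not overlap. Its log2 fold change was -1.11 (SE 0.49, edgeR adjusted p = 0.868), and its unadjusted edgeR p of 0.0443 was the only one under 0.05 among the 39 pathway genes, beside 5.00% of all genes (edgeR). Without sgRosa replicate 4 Psmg4 was at -0.80 (edgeR adjusted p = 0.461). In that fit 3 other pathway genes had an unadjusted p under 0.05, beside 11.3% of all genes: Shfm1, Adrm1 and Nploc4, a cofactor of Vcp (0.84, edgeR adjusted p = 0.368; 0.42 with all libraries). Nploc4 was named after its values were seen. Psmg2 was at 8.16, 5.63, 6.12 and 5.86 CPM in sgRosa and at 4.78, 5.04 and 4.78 CPM in sgNr2f2, also without overlap (-0.40, SE 0.41; -0.45 without sgRosa replicate 4). Pomp, which helps the core assemble and was named after its values were seen, was at 129 to 166 CPM in 6 libraries and at 609 CPM in sgRosa replicate 4 (-0.84, SE 0.63; 0.01 without it).

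Adrm1, a ubiquitin receptor of the base outside the naming rule, was raised further in sgRosa replicate 4 than any of the 35 members. It was at 27.7, 23.5, 25.4 and 237 CPM in sgRosa and at 31.8, 49.6 and 39.3 CPM in sgNr2f2 (-0.96, SE 0.84). Without that library Adrm1 was higher in all sgNr2f2 libraries, at 0.65 (edgeR adjusted p = 0.389). Shfm1, the table's symbol for the small lid subunit Sem1, was at 40.4, 38.4, 43.7 and 1.77 CPM in sgRosa and at 19.9, 32.0 and 21.1 CPM in sgNr2f2, so it went the opposite way in both respects (-0.35, SE 0.77; -0.75, edgeR adjusted p = 0.337, without sgRosa replicate 4). Both genes were named after their values were seen. Txnl1, a thioredoxin-like protein bound to the regulatory particle, was at 45.6, 48.2, 61.5 and 173 CPM in sgRosa and at 39.4, 52.2 and 49.9 CPM in sgNr2f2. Its difference came from 1 library (-0.80, SE 0.55; -0.13 without sgRosa replicate 4).

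Nfe2l1, the factor that raises proteasome gene transcription when proteolysis is impaired, was at 126, 188, 297 and 121 CPM in sgRosa and at 350, 262 and 368 CPM in sgNr2f2. The means were 183 ± 81.8 (SD, n = 4) and 326 ± 56.9 CPM (SD, n = 3), and 1 sgRosa library lay within the sgNr2f2 range. Its log2 fold change was 0.83 (SE 0.48, edgeR adjusted p = 0.868) and 0.68 without sgRosa replicate 4. Ddi2, the protease that activates this factor, was at 3.33, 3.09, 3.54 and 1.23 CPM in sgRosa and at 4.12, 9.92 and 3.63 CPM in sgNr2f2. The groups of Ddi2 did not overlap, by a narrow margin between 3.54 and 3.63, and sgNr2f2 replicate 2 carried much of the difference (1.06, SE 0.56; 0.46 without that library and 0.83 without sgRosa replicate 4).

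Of the ubiquitin genes, all 4 were below 0, and 3 of 4 without sgRosa replicate 4. Ubb, which encodes polyubiquitin, was at 407, 342, 334 and 2603 CPM in sgRosa and at 511, 541 and 397 CPM in sgNr2f2 (-0.93, SE 0.81; 0.42 without sgRosa replicate 4). Uba1, the main enzyme that activates ubiquitin, was at 72.1, 66.2, 53.3 and 21.9 CPM in sgRosa and at 109, 85.2 and 82.9 CPM in sgNr2f2. All sgNr2f2 libraries of Uba1 were higher (0.79, SE 0.47, edgeR adjusted p = 0.868; 0.53 without sgRosa replicate 4). Of 8 genes for shuttle proteins and the unfoldase complex of Vcp, 6 were above 0, and 7 without sgRosa replicate 4. Ubqln4, a shuttle, was at 29.3, 54.2, 64.7 and 15.8 CPM in sgRosa and at 108, 55.4 and 93.5 CPM in sgNr2f2 (1.06, SE 0.53; 0.80 without sgRosa replicate 4), with overlap.

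Other gene sets for abundant complexes lay below 0 as well. Of 79 tested cytosolic ribosomal protein genes 66 were below 0, with a median of -0.33 (-0.25 without sgRosa replicate 4), and of 75 nuclear oxidative phosphorylation genes 63, with a median of -0.52 (-0.17 without it). Beside these, the core proteasome genes had medians of -0.27 and -0.18 and the regulatory particle genes of -0.27 and 0.10. All 4 sets were compared as values only.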

How the data were processed

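The authors deposited whole-number counts per gene symbol for 7 libraries, and the 7 single-library files were identical to the series table. Per the submitters' processing notes, the tools were STAR 2.7.5c, featureCounts 2.0.1, edgeR 3.42.4, fastp 0.23.2, MultiQC 1.11 and FastQC 0.11.9, and the build was mm10. No source used here gives the annotation, the strand setting or the treatment of multimapping reads. Counts were analysed with edgeR 4.0.16 (TMM, filterByExpr, 14412 genes kept, quasi-likelihood F test, group as the only term) in R 4.3.3, with Benjamini-Hochberg adjustment over all genes at 0.05. Log2 CPM used a prior count of 2. DESeq2 1.42.0 and limma 3.58.1 served as alternatives, and leaving out each library, other scalings and a replicate block were tried. Scripts were tested on simulated data. Exon lengths came from GENCODE M21, coordinates and promoters from RefSeq GRCm38.p6. Exons of 8 of the 36 members overlap another gene. Members, lists and tests were chosen with earlier results of these data known. Named by rule were, in each part of the complex, the gene highest per kilobase, the 2 with the smallest p and any whose groups did not overlap. In each pathway list these were the gene with the smallest p, any whose groups did not overlap, and Nfe2l1, Psmb8, Psmb9 and Psmb10. Other genes were picked after their values were seen. Precision rests on 6266897 to 20928677 counts per library.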

Additional observations from a re-analysis of the deposited data

Results flagged for a closer look

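In the sgRosa group of 4 libraries, 56 measures were checked for a library far from the other 3, by the gap to the nearest library as a share of the group's range (above 0.829, which chance exceeds in about 1 group in 20). In 22 of the 56 a library stood apart, and it was sgRosa replicate 4 each time. The measures are not independent, since they come from 1 library, and 5 of them (Adrm1, Psme1, Pomp, Shfm1 and Nploc4) were added after their values were seen, so the share is not one to set against chance. Without those 5 it was 18 of 51. Among alpha genes it was high in Psma7 (252 CPM), Psma4 (84.5 CPM) and Psma6 (199.6 CPM) and low in Psma2 (24.1 CPM). Among beta genes it was high in Psmb6 (272 CPM) and Psmb4 (183 CPM), and in the immunoproteasome gene Psmb10 (96.9 CPM). Among regulatory genes it was high in Psmc1 (352 CPM), Psmc3 (689 CPM), Psmc4 (363 CPM), Psmd4 (455 CPM), Psmd6 (61.9 CPM), Psmd8 (103 CPM), Psmd11 (281 CPM) and Psmd13 (120 CPM), and in the mean log2 CPM of the regulatory particle (6.63). Among pathway genes it was high in Adrm1 (237 CPM), Psme1 (187 CPM), Pomp (609 CPM), Txnl1 (173 CPM) and Ubb (2603 CPM) and low in Shfm1 (1.77 CPM).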

How the results depend on the processing

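Limits: with 3 and 4 libraries, standard errors of 0.35 to 0.76 on the log2 scale leave changes of the size of most members' estimates within error, and 6266897 counts in sgRosa replicate 4 make its low genes less precise. No member passed an adjusted p of 0.05 in any of the fits run. DESeq2 called 7 genes in place of 0 with all libraries and 372 without sgRosa replicate 4, a fit added after the data were seen, in which the members' median was 0.0379. With 1 library left out in turn, edgeR called 0 genes and 0 members each time, the members' median ran from -0.31 to 0.01, the core minus regulatory difference from -0.28 to -0.04 and Nr2f2 from -0.45 to -0.21. Scaling by library totals alone moved the median of all genes from -0.11 to -0.33 and that of the members to -0.52. The replicate numbers are shared by both groups with no stated meaning. Same-numbered libraries deviated with correlations of -0.201, -0.262 and 0.0897, and libraries of different number with -0.141 to 0.246. These few values cannot settle what the numbers mean. With the replicate number as a block over the 6 libraries numbered 1 to 3, 0 genes were called, the median of the members was -0.0067, that of the core -0.19 and that of the regulatory particle 0.09; this fit also lacks sgRosa replicate 4. Log2 fold changes that changed sign are as follows, and the cause was not tested. With the block they were Adrm1 0.63, Pomp 0.0114, Psma7 0.19, Psmb4 0.0495, Psmb6 0.24, Psmc1 0.0724, Psmc2 0.0497, Psmc3 0.21, Psmc4 0.37, Psmc5 0.28, Psmc6 -0.18, Psmd11 0.54, Psmd12 0.0913, Psmd4 0.40, Psmd7 0.26, Psmd8 0.22, Ubb 0.41. With limma-voom quality weights they were Adrm1 0.58, Psma7 0.0877, Psmb4 0.0494, Psmb5 0.0872, Psmb6 0.20, Psmc2 0.0718, Psmc3 0.052, Psmc4 0.23, Psmc5 0.0227, Psmc6 -0.0894, Psmd11 0.38, Psmd4 0.27, Psmd7 0.0924, Psmd8 0.15, Ubb 0.30. With limma-voom they were Psma2 0.0427, Psmb7 0.0449, Shfm1 0.20. With library totals alone they were Psmc6 -0.0974, Psmd1 -0.0638. Over the fits with 1 library left out, the genes that changed sign ran over these ranges: Adrm1 -1.25 to 0.65, Pomp -1.07 to 0.0117, Psma2 -0.27 to 0.0811, Psma3 -0.15 to 0.11, Psma6 -0.94 to 0.0426, Psma7 -0.30 to 0.19, Psmb4 -0.86 to 0.0527, Psmb5 -0.17 to 0.10, Psmb6 -0.62 to 0.25, Psmb7 -0.27 to 0.13, Psmb9 -0.85 to 0.14, Psmc1 -0.73 to 0.0638, Psmc2 -0.21 to 0.0517, Psmc3 -1.07 to 0.20, Psmc4 -1.08 to 0.38, Psmc5 -0.92 to 0.21, Psmc6 -0.18 to 0.29, Psmd11 -0.67 to 0.57, Psmd12 -0.27 to 0.10, Psmd14 -0.0937 to 0.0903, Psmd4 -0.82 to 0.39, Psmd5 -0.52 to 0.11, Psmd7 -0.75 to 0.25, Psmd8 -0.41 to 0.24, Ubb -1.19 to 0.42. The other values kept their sign and their side of the threshold, apart from the members' median, which was above 0 without sgRosa replicate 4 by edgeR and by DESeq2, as given above.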
